A study of Mus musculus with 2 samples.

Results

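The fatty acid desaturases and elongases were examined in macrophages taken from the peritoneal cavity of mice. The set holds 9 genes, Scd1, Scd2, Fads1, Fads2, Fads3, Elovl1, Elovl5, Elovl6 and Elovl7, of 36921 gene names on the array. They were taken by the gene name printed for each non-control probe, and 21 probes carried these names. RNA came from wild-type (WT) mice and from MeXis null mice, which lack a long noncoding RNA gene near the cholesterol transporter gene Abca1. The strain of both was given as bl6, and both groups of cells were in DMEM with serum and antibiotics. The labels name no ligand or other treatment, no age, and no extent of the deletion. Each genotype was 1 single-colour Agilent array hybridised with total RNA pooled from 3 samples. With 1 pool per genotype the genotype effect has no replicate check, so no p-value is given and the differences describe these 2 arrays. The single MeXis probe, named AI427809 in the files, was well above background on neither array (12.3 on WT, 8.44 on MeXis null), so it does not check the genotype labels.

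Saturated fatty acids made by the cell or taken up from outside are lengthened and desaturated in the membrane of the endoplasmic reticulum. Stearoyl-CoA desaturases (Scd1, Scd2) place the first double bond in saturated acyl chains and give oleate and palmitoleate. Fads1 and Fads2 are the front-end desaturases that turn dietary linoleate and linolenate into arachidonate, eicosapentaenoate and related polyunsaturated chains. Elovl proteins carry out the condensation step that adds carbon to the chain. In liver and macrophages several of these genes, Scd1 best known among them, are targets of the sterol-sensing liver X receptors (LXR) and of the lipogenic factor SREBP-1c.

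The probes behind the main result lie in the Scd gene cluster of chromosome 19 (mm9, the build of the array files). They are shown because the 4 genes are close relatives that a probe could confuse. A stretch of 30 bases of each 60-base probe is given 5′ to 3′, and capitals mark the longest run that the probe shares with the probe of another Scd gene.
Scd1: atctcaacagtgtgaaTTAAGTgtccatag
Scd2: taagtcctgcacATTTTTGtagtaactgtc
Scd3: caagcaaccagtTGACAGggactgaacata
Scd4: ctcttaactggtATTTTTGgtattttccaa
The probes are at chr19:44469387-44469446 (Scd1, minus strand), chr19:44381024-44381083 (Scd2), chr19:44318249-44318308 (Scd3) and chr19:44421034-44421093 (Scd4). No mm9 gene model was used here, so exon and UTR positions are not assigned. The Scd1 and Scd2 probes shared a run of at most 6 bases, as long as that of the Fads2 and Fads3 probes. Probes were compared with probes and not with transcripts, so this run cannot show whether a probe also binds a relative. Scd1 and Scd2 probes each listed accessions of their own gene only. The Scd4 probe listed RefSeq accessions of 4 genes, Scd4, Ube2l6, Prss35 and 2610524H06Rik, so its signal cannot be given to Scd4 alone.

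The 2 stearoyl-CoA desaturases were the members with the lowest differences. On the MeXis null array Scd1 was 9.19-fold and Scd2 4.20-fold lower than on WT. The other 7 members were within 2-fold. At 2-fold, and beyond the 95% interval of the error that the scanner software gives for each spot (its scanner error), 2 of 9 members were lower and 0 were higher. Of all 15474 genes well above background on both arrays, 4.78% were lower and 7.35% higher by that rule. At 3-fold the members' counts were again 2 lower and 0 higher, beside 1.11% and 1.49% of all genes. The median difference of the members was 0.12 on the log2 scale (MeXis null minus WT, after scaling each array to its 75th percentile), against 0.04 for all genes. With 4 members below 0 and 5 above, the set as a whole was not shifted one way. These counts and medians describe the list, whose members were chosen with earlier results of these arrays known.

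Of the 21 probes, 12 were well above background on both arrays, 3 on WT only and 6 on neither. All 9 genes had at least 1 probe well above background on both, and that with the highest signal stands for the gene. The measure of technical error was the spread between repeated spots. For 285 probes printed at least 5 times, the SD of the log2 difference over the spots of a probe had a median of 0.47, so a difference of 0.91 (1.88-fold) was taken as the limit for a gene read from a single spot. Those repeated probes were mostly bright, with a median WT signal of 24387, and only 15 read under 1000 on WT. For these 15 the median SD was 0.42, with a range of 0.23 to 0.67. Scd1 and Scd2 lay beyond the limit of 0.91, and none of the other 7 members did.

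**Figure D1:**
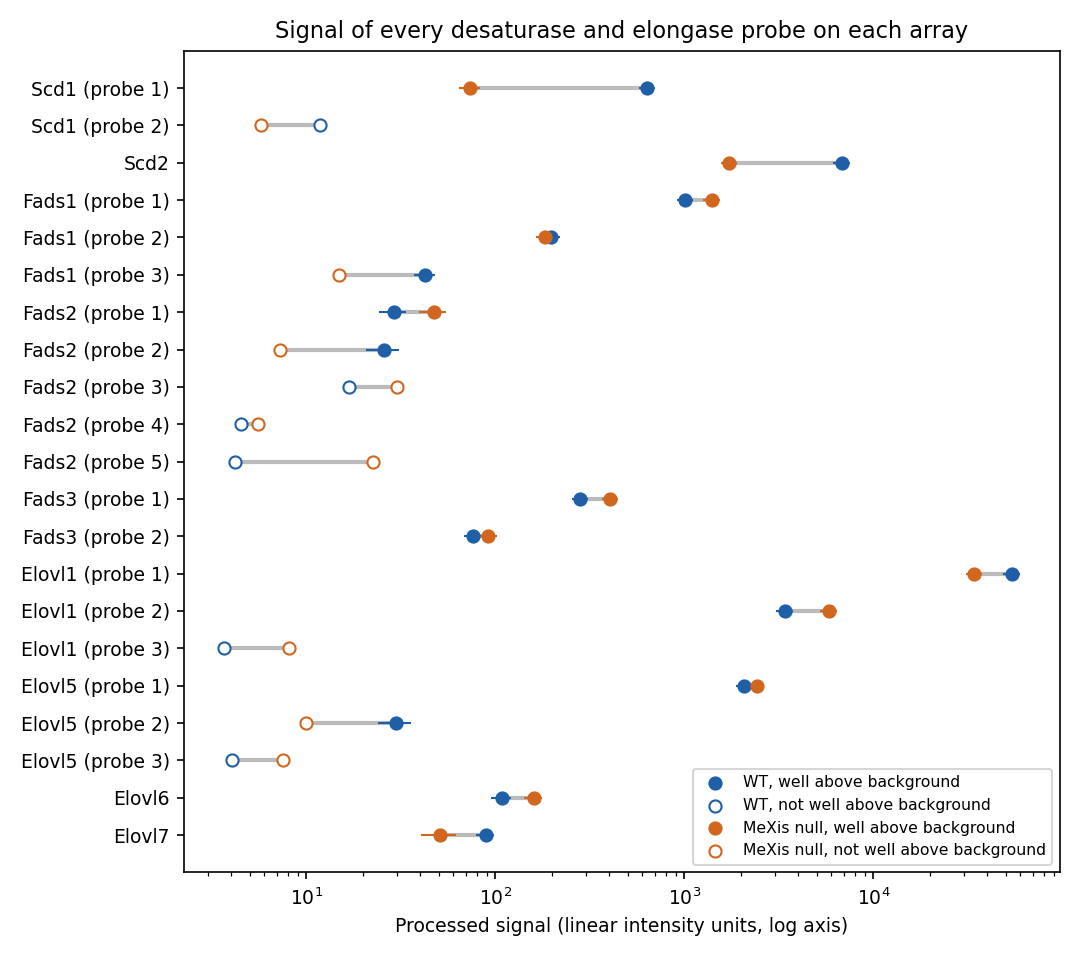
Processed signal (linear intensity, log axis) of all 21 probes of the 9 genes on the WT array (blue) and the MeXis null array (orange). Filled points were well above background and carry the scanner error as a bar, open points were not; the Scd1 probe falls from 636 on WT to 73.7 on MeXis null and the Scd2 probe from 6829.8 to 1732, while the other filled pairs lie close together.

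Scd1 is the main delta-9 desaturase of liver and fat and is also expressed in macrophages. Its probe read 636 ± 63.8 (processed signal ± scanner error) on WT and 73.7 ± 9.39 on MeXis null. Both values were well above background, whose lowest passing signal was 12.1 on WT and 27.3 on MeXis null, so the MeXis null value is dim and its fold depends on how background is removed. The log2 difference was -3.20 with a scanner error of 0.23. Among the 15474 genes its difference had rank 5 from the lowest. Before correction the spot averaged 647 over a local background of 21.0 on WT and 139 over 31.0 on MeXis null, and the ratio of the net values, MeXis null over WT, was 0.173 against 0.116 for the processed signals. With a background correction that adds an offset of 50 (normexp) the difference was -2.17. The 100 nearest spots differed by a median of 0.41 in the opposite direction, and subtracting that (local surface correction) gave -3.61. A second Scd1 probe, designed on a cDNA entry, lies at chr19:44471140-44471199 on the plus strand, opposite to the first. This second probe was well above background on neither array. Its signals were 11.8 (WT) and 5.76 (MeXis null), so Scd1 rests on 1 probe.

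Scd2 is the related desaturase that predominates in brain and in many cells outside the liver. Its only probe read 6829.8 ± 683 on WT and 1732 ± 173 on MeXis null, far above background on both arrays. The log2 difference was -2.07 with a scanner error of 0.20, at rank 41 from the lowest. The net raw ratio of 0.230 was close to the processed ratio of 0.254. With local surface correction it was -2.29, and over all alternatives it ran from -2.77 to -2.06. The gap between Scd1 and Scd2 was 1.13, less than the 1.29 taken as the limit for a gap between 2 such differences, so with these values they are not told apart in size. After local surface correction the gap was 1.32 against a limit of 0.90, whereas with normexp both genes stood at -2.17.

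The 3 front-end desaturases of the Fads cluster lay slightly above 0 and within the limit of 0.91. Fads1, the delta-5 desaturase that makes arachidonate, read 1010.1 ± 101 on WT and 1399 ± 140 on MeXis null at the probe chr19:10270530-10270589, a difference of 0.38. A second Fads1 probe (chr19:10261805-10261864) read 198 and 183, a difference of -0.20. The third (chr19:10257644-10257703) read 42.5 on WT and 14.9 on MeXis null, where it was not well above background. Its difference of -1.61 had a scanner error of 1.17, so that its 95% interval included 0. The bound of 1.66-fold lower in MeXis null leaves out that error, so it gives no direction. The 95% intervals of the other 2 Fads1 probes included 0 as well, so no direction is given for Fads1.

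Fads2, the delta-6 desaturase and first step from linoleate, was dim at all 5 of its probes. The probe read as Fads2 spans 431 bases of genome (chr19:10138750-10139180) for its 60 bases. It gave 29.0 ± 4.79 on WT and 47.2 ± 7.56 on MeXis null, a difference of 0.61 whose 95% interval from a scanner error of 0.33 included 0. A second probe read 25.8 on WT and 7.25 on MeXis null, where the latter did not pass background, and differed by -1.92. With a scanner error of 1.30 its 95% interval included 0. Its bound, which leaves out that error, was 1.01-fold lower, which is hardly a difference. The other 3 probes read between 4.20 and 16.8 on WT and between 5.58 and 30.2 on MeXis null, and none was well above background. Little can be said of Fads2 at this signal.

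Fads3, a relative of Fads1 and Fads2 that acts on sphingoid bases and trans-vaccenate, had a WT signal of 282 ± 28.4 and a MeXis null signal of 406 ± 41.0, a difference of 0.43. A second probe read 76.4 and 91.2, a difference of 0.17. Fads3 was the only member with 2 probes well above background on both arrays that lay on the same side of 0. After local surface correction they were at 0.35 and -0.11.

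**Figure D2:**
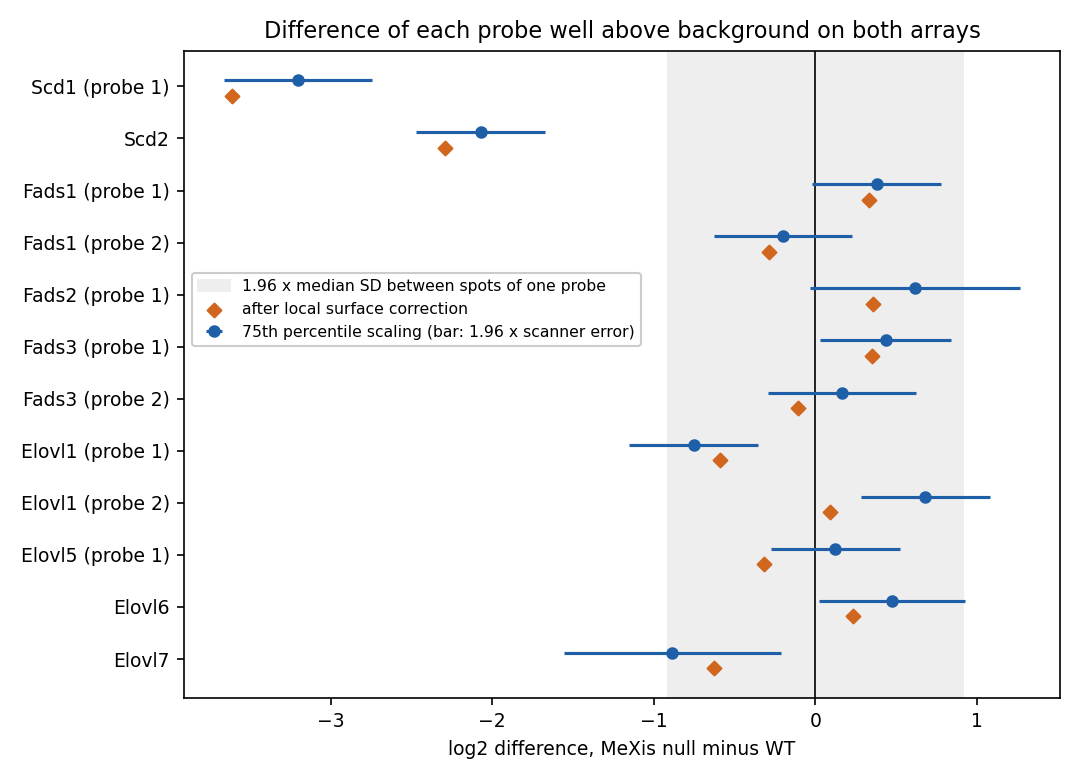
Log2 difference (MeXis null minus WT) of the 12 probes well above background on both arrays, with bars of the 95% interval from the scanner error, and the same after local surface correction (diamonds). The grey band is the limit of 0.91 from the spread between spots of one probe; only Scd1 at -3.20 and Scd2 at -2.07 lie outside it, and the 2 Elovl1 probes lie on opposite sides of 0.

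Elovl1, which elongates saturated and monounsaturated chains to the very long chains of sphingolipids, gave probes of opposite sign. The pair is shown because the value of the gene depends on which probe is read. Capitals mark the longest run they share.
Elovl1 first probe: ggcctggaagTCAGGctgtgcgctcacttg
Elovl1 second probe: ccacctaagtgccTCAGGactgcaccttgg
The first (chr4:118105163-118105222) had a WT signal of 54195 ± 5419 and a MeXis null signal of 34247 ± 3425, a difference of -0.75. The second (chr4:118104741-118104800), 362 bases away and listed with the same RefSeq transcripts, read 3402 ± 340 and 5809 ± 581, a difference of 0.68. For each difference the 95% interval from its scanner error of 0.20 left out 0, and neither exceeded 0.91. The gap between them was 1.43, and 9.18% of the 3638 genes with exactly 2 such probes had a gap at least as large. Over the 5202 genes with at least 2 such probes, 54.7% had probes of opposite sign. The spots around the second probe differed by a median of 0.59, and after local surface correction the pair stood at -0.59 and 0.09. The remaining Elovl1 probe, from a single Ensembl transcript, was well above background on neither array (3.67 and 8.09).

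Elovl5, the elongase of the polyunsaturated series downstream of Fads2, read 2075 ± 208 on WT and 2409 ± 241 on MeXis null (chr9:77832205-77832264), a difference of 0.12 with a scanner error of 0.20. Its raw net ratio was 0.822 and its processed ratio 1.16. The spots around it differed by a median of 0.44, so that the local surface correction placed it at -0.32. Normexp correction placed it at -0.36. Its sign therefore depends on the processing. A second probe read 29.8 on WT and 9.93 on MeXis null, where it was not well above background, and its difference of -1.67 had a scanner error of 1.48. The interval from that error ran from -4.58 to 1.23 and so took in both signs. The bound of 1.16-fold lower leaves out that error, so it gives no direction. The last probe read 4.06 and 7.56, well above background on neither array.

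Elovl6, which takes palmitate to stearate and so supplies the main substrate of Scd1, had a single probe (chr3:129337756-129337815). Its signal was 108 ± 12.7 in WT and 159 ± 17.1 in MeXis null, a difference of 0.47 with a scanner error of 0.23. The spot was brighter on MeXis null before correction as well, with a net raw ratio of 2.71 against 1.48 for the processed signals. Elovl6 and Scd1 are neighbouring steps of the same route and stood 3.67 apart in log2 difference.

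Elovl7, an elongase of saturated and unsaturated long chains, also had a single probe (chr13:109073556-109073615). Its signal was 88.7 ± 9.73 in WT and 51.1 ± 10.8 in MeXis null, a difference of -0.89 with a scanner error of 0.34. This was just within the limit of 0.91, and after local surface correction the difference was -0.62 against a limit of 0.64. With loess scaling it was -1.02 and with spike-in scaling -1.59, both past 2-fold. At 1.5-fold and beyond the scanner error, Elovl7 and Elovl1 joined Scd1 and Scd2 and 4 of 9 members were lower and 0 higher. Of all genes 14.3% were lower and 18.2% higher at 1.5-fold, which lies inside the spread between spots of one probe.

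Compared with each other, the members fell into no simple order beyond the 2 stearoyl-CoA desaturases. Of the 36 pairs of members, 17 had a gap beyond 1.29. Scd1 was separated in this way from 7 of the 8 others, all but Scd2. Scd2 was separated from 6 of 8, all but Scd1 and Elovl7, with a gap to Elovl7 of 1.18. Its gap to Elovl1 was 1.32, just past the limit, which takes 1 SD for all signal levels. Among the 50 repeated probes nearest in signal the median SD was 0.54 for Scd2 and 0.45 for Elovl1. Separations with a gap this near 1.29 are therefore not firm. After local surface correction Scd1 and Scd2 were each separated from all 8 others at the limit of 0.90. Fads1, Fads2, Fads3 and Elovl6 lay within 0.24 of each other, and were not separated from each other in either form.

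**Figure D3:**
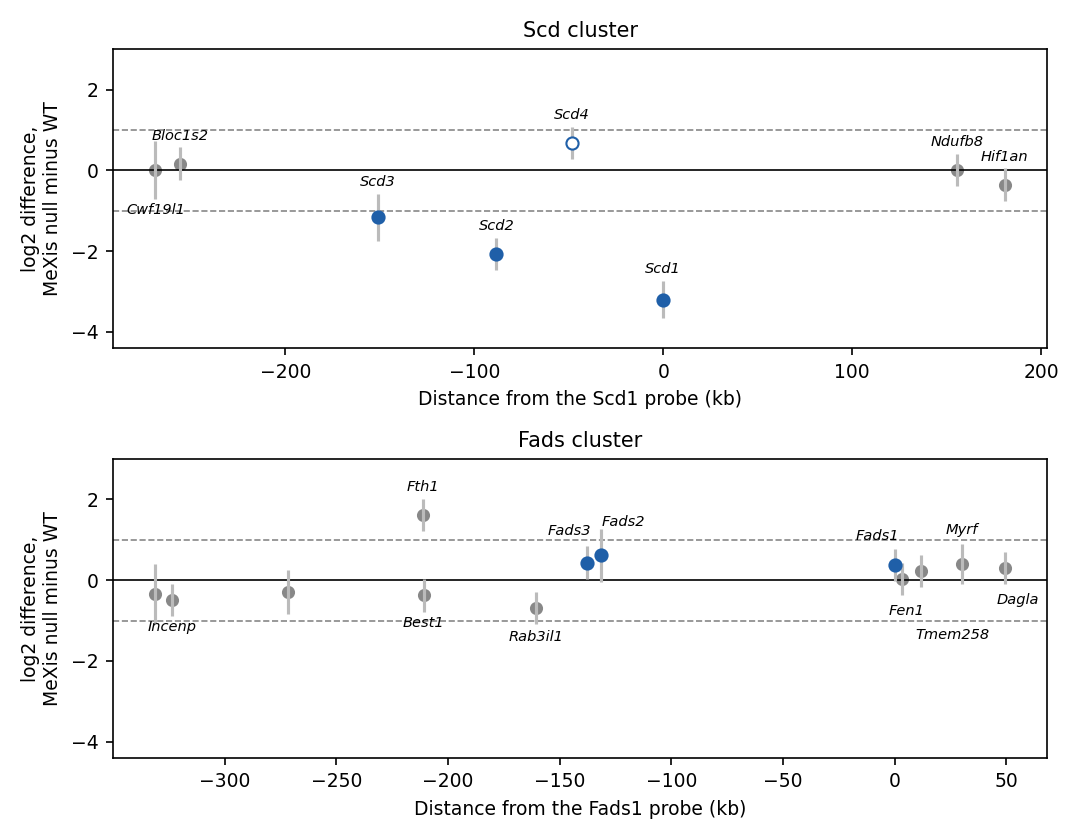
Log2 difference (MeXis null minus WT, bars of the 95% interval from the scanner error) of genes well above background on both arrays within 200 kb of the Scd and Fads members, by distance along the chromosome from the Scd1 or the Fads1 probe. Blue points are Scd and Fads genes, the open point is the Scd4 probe that lists 4 genes, and grey points are neighbours; Scd1, Scd2 and Scd3 lie at or below -1.16 while the 4 neighbours of the Scd cluster lie between -0.36 and 0.17.

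The Scd genes form a cluster, and so do the Fads genes. Around Scd1 and Scd2, within 200 kb, 4 unrelated genes were well above background on both arrays, a rule chosen after the values of these arrays were known. Their differences ran from -0.36 (Hif1an) to 0.17 (Bloc1s2), and none was at least 2-fold higher or lower. Scd3, which lies beside Scd2, read 100.4 ± 11.1 on WT and 47.9 ± 8.28 on MeXis null, 2.23-fold lower at -1.16 and at -0.59 once corrected for the local surface. Another Scd3 probe lists accessions of both Scd1 and Scd3, and read 24.4 on WT and 7.76 on MeXis null, well above background on WT only. Scd4 differed by 0.67 at the probe shared with 3 other genes, where it read 2554 and 4324. A probe that lists Scd4 alone read 37.1 and 56.0, a difference of 0.50 with a scanner error of 0.39, so that its 95% interval included 0. Around the Fads genes 10 neighbours ran from -0.69 (Rab3il1) to 1.62 (the ferritin heavy chain Fth1, 0.57 after local surface correction), with a median of -0.13, 1 at least 2-fold higher and 0 lower.

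Other genes of the pathway were read from lists chosen with earlier results known. The counts at 2-fold in these lists stand beside 4.78% lower and 7.35% higher of all genes. Of the 8 further desaturases and elongases, 4 were well above background on both arrays. Scd3 alone was 2-fold lower, Degs1, the ceramide-forming desaturase, differed by 0.32 and Degs2 by 0.41. Fads6, Elovl2, Elovl3 and Elovl4 were well above background on neither array. Of 7 genes for the remaining steps of the elongation cycle, 6 were measured and 0 passed 2-fold in either direction. Their median was -0.07, from the ketoreductase Hsd17b12 (-0.82) and the dehydratase Hacd3 (-0.23) to Hacd4 (0.17) and Hacd2 (0.19).

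The desaturases draw electrons from cytochrome b5. Of 5 measured electron donor genes 1 was lower, the cytochrome b5 reductase Cyb5r3 at -1.20, and 0 were higher. The 2 Cyb5r3 probes disagreed in sign, and after local surface correction it stood at -0.74. Cyb5a differed by -0.18, Cyb5r1 by 0.25 and Cyb5r4 by 1.00, just under 2-fold (0.54 after local surface correction).

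Genes of fatty acid synthesis, a list that also takes in mitochondrial enzymes such as Mecr, had a median of -0.43 over 9 measured members, with 2 lower and 1 higher. Fatty acid synthase Fasn went from a WT signal of 11876 to 4362, a difference of -1.54. The acetyl-CoA synthetase Acss2 was at -1.21, with probes of opposite sign. Malic enzyme Me1, a source of NADPH, read 64.9 and 262, a difference of 1.92, and the mitochondrial reductase Mecr was at 0.61. Among the acyl-CoA synthetases, which activate fatty acids, 1 of 4 was lower: Acsl3 at -1.35. Acsl4, which prefers arachidonate, differed by -0.39, with probes of opposite sign. Acsl5 was at -0.01 (0.79 after local surface correction) and Acsl1 at 0.75 (0.21 after it).

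Of 8 measured acyltransferases that use the products, 1 was lower and 0 were higher, with a median of 0.18. Lpcat3, which places polyunsaturated chains into phospholipids, went from a WT signal of 10868 to 4340.2, a difference of -1.41. Mboat7, its counterpart for phosphatidylinositol, was at -0.30, with probes of opposite sign, and at 0.35 after local surface correction. Mboat1 stood at 0.39 (0.02 after that correction) and Lpcat2 at 0.60. Peroxisomal beta-oxidation, the last step to docosahexaenoate, had a median of -0.55 over 7 genes. The very long chain transporter Abcd2 (-1.24) and the thiolase Acaa1b (-1.01, or -0.41 after local surface correction) were lower, and 0 were higher, with the sterol carrier protein Scp2 at 0.77.

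Of 19 measured regulators, 1 was lower and 0 were higher, beside 4.78% and 7.35% of all genes. The carbohydrate-response factor Mlxipl was at -1.15 (-0.90 after local surface correction). The LXR genes Nr1h3 and Nr1h2 differed by -0.83 and 0.03. Srebf1, which encodes SREBP-1, differed by -0.07, or -0.85 after local surface correction, and Srebf2 by -0.59. Mlx stood at 0.83 and Scap, the SREBP escort protein, at 0.77 (0.04 after local surface correction). Over the list the median was -0.07, and -0.50 with that correction.

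**Figure D4:**
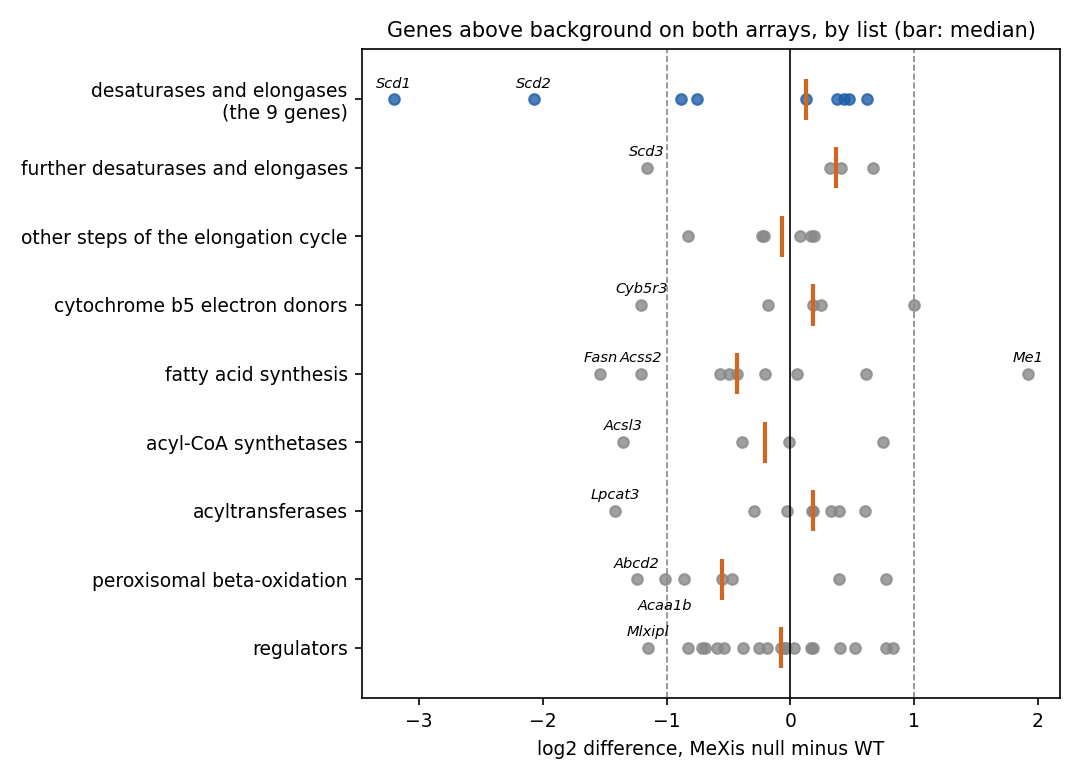
Log2 difference (MeXis null minus WT) of every gene well above background on both arrays in the 9 desaturases and elongases (blue) and in 8 further lists (grey), with the median of each list as a bar and 2-fold as dashed lines. Genes called at 2-fold are named; Scd1 and Scd2 lie below every other gene drawn, and Me1 at 1.92 is the highest.

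The pools differed in markers of other cells, and in bulk RNA fewer cells of a type and less RNA per cell cannot be told apart. All 9 macrophage markers were well above background on both arrays. Lyz2 stood at 1.23 (0.52 after local surface correction), Cd14 at 0.85 and Csf1r, with probes of opposite sign, at -0.88. Mertk was 3.90-fold lower (-1.16 on the log2 scale after that correction). Their list median was 0.53 (0.05 after local surface correction), and signals summed to 304488 on WT and 455400 on MeXis null. Fibroblast markers had a median of 0.91 over 6 of 7, with signals summing to 7327 on WT and 12947 on MeXis null. Fbn1 (1.83) and Col1a2 (2.14-fold higher) were highest, Dcn (0.30) and Col3a1 (-0.15) lowest, and Lum was well above background on WT only. Mesothelial markers had a median of 1.01 (0.71 after local surface correction) over 6 of 6 (summed signal 738 and 1871), from Krt8 (0.27) and Msln (0.46) to Upk3b (1.43, or 0.58 after that correction) and Wt1 (1.60). B cell markers had a median of -1.15 over 4 of 5 (2074 and 799), from Cd79b (-1.71) to Cd79a (-0.92) and Ms4a1 (-0.81), with Pax5 on WT only. Of 6 eosinophil markers only Siglecf (-0.75) was read on both arrays, Ear1, Ear2 and Il5ra were read on WT only, and Epx and Prg2 were well above background on neither (summed signal 4315 and 1640). T cell markers Cd3e and Cd2 stood at -0.51 and -1.28, with Cd3d and Cd5 on WT only (summed signal 498 and 306). Of the adipocyte markers, cells in which Scd1 is abundant, Adipoq, Plin1, Cidec, Cfd and Retn were well above background on neither array, and Lep differed by -0.44 (0.40 after local surface correction). The part of these cell markers in the Scd1 and Scd2 differences was not tested.

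**Figure D5:**
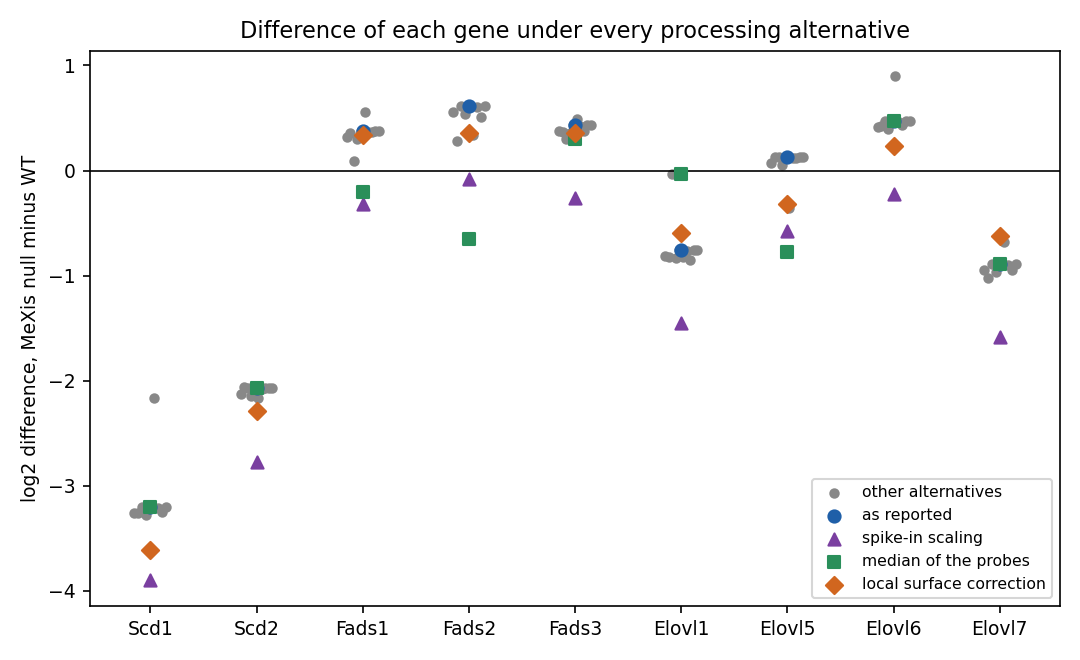
Log2 difference (MeXis null minus WT) of each of the 9 genes as reported and under each processing alternative that gives it a value; the median of the probes (squares) takes in Fads1, Fads2 and Elovl5 probes well above background on WT only. Scd1 stays between -3.90 and -2.17 and Scd2 between -2.77 and -2.06, and spike-in scaling, which moves the median of all genes by -0.70, takes Fads3 and Elovl6 below 0 where no other alternative does.

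Quantile, loess, median and all-probe percentile scaling kept the sign of all 9 members. Scaling to the spike-in probes, RNA added in known amounts, moved the median of all genes by -0.70, and of all genes 4336 were then called lower and 170 higher, against 739 and 1137 as reported. Under it Fads1 (-0.32), Fads2 (-0.08), Fads3 (-0.26), Elovl5 (-0.57) and Elovl6 (-0.23) lay below 0. Relative to the median of all genes under that scaling Fads1 was at 0.34, Fads2 at 0.58, Fads3 at 0.40, Elovl5 at 0.09 and Elovl6 at 0.44, while Scd1 was at -3.24 and Scd2 at -2.11. Scd1 and Scd2 were below 0 and beyond 2-fold under each alternative that gave them a value. Scd1 gave none where a signal of at least 100 on both arrays was asked for.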

How the data were processed

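RNA of 1 WT and 1 MeXis null pool was measured on single-colour Agilent arrays of 62976 features. Per the file headers, the authors' Feature Extraction 11.5.1.1 gave each spot an intensity on a linear scale, subtracted background and removed trends across the surface; coordinates are mm9. In the deposited series matrix every intensity (62976 of 62976) was identical to that signal. Spots marked as outliers were left out (305 on WT, 205 on MeXis null, none of a member), and no spot was saturated. Each processed signal was put on the log2 scale, and the 75th percentile of the array was subtracted, taken over the probes that both arrays measured well above background. Under 50% of probes were well above background (45.5% on WT, 41.6% on MeXis null). A gene was read from its probe with the highest mean. Gene names were updated through RefSeq accessions (GRCm38.p6, names only; 32994 probes by accession, 10224 by symbol, 520 by synonym, 12867 kept the file's name). Where only 1 array measured a probe, the fold is a bound against the higher of its own dim signal and that array's lowest passing signal. This bound leaves out the scanner error. Calls needed 2-fold and a 95% interval from the scanner error that left out 0. The number of arrays limits precision.

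Every member was named with every probe; of each further list the 2 highest, the 2 lowest and all called genes, and Srebf1, Srebf2, Nr1h2, Nr1h3 and Fasn, except 2 genes that are not reported here; the neighbours Hif1an, Bloc1s2, Rab3il1 and Fth1 were chosen after their values were seen. Members, lists and settings were chosen with earlier results of these data known. Alternatives were normexp (limma 3.58.1), quantile, loess (span 0.3), median, all-probe percentile and spike-in scaling, the series matrix, outlier spots kept, other dim-probe filters, gene values as the median over all probes or, added later, over those measured on both arrays, 1.5-fold and 3-fold, and local surface correction (each spot minus the median difference of its 100 nearest spots). Tested on simulated data with 22733 probes, 99.0% of 200 probes changed 4-fold were called, as were 3.17% of the unchanged.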

Additional observations from a re-analysis of the deposited data

How the results depend on the processing

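Over 15 alternatives, 2 members were called lower and 0 higher, with the exceptions below. With loess scaling 3 were lower (Scd1, Scd2 and Elovl7), beside 840 of all genes, against 739 as reported. With spike-in scaling 4 were lower (Scd1, Scd2, Elovl1 and Elovl7), beside 4336 of all genes. At 1.5-fold 4 were lower, beside 14.3% of all genes. Where a signal of at least 100 on both arrays was asked for, 1 of the 6 members left was lower, since Scd1 reads 73.7 on MeXis null. Some alternatives could hardly change a call. The series matrix values equalled the processed signal, no member spot was an outlier, and every member passed the background filter dropped in 1 alternative. Under both probe medians Scd1 and Scd2 each kept the 1 probe reported. The median difference of the members was 0.12 as reported. It was -0.65 by the median of each gene's probes, -0.36 with normexp, -0.57 with spike-in scaling and -0.32 with local surface correction. Its sign therefore depends on the probes read, the scaling, and the background and surface correction. The cause was not tested. Spike-in scaling moved the median of all genes by -0.70. The median of each gene's probes takes in probes not well above background on MeXis null, which give only bounds; over probes measured on both arrays, an alternative chosen after seeing the data, the members' median was 0.09, Fads1 was at 0.09 and Elovl1 at -0.04. No member called at 2-fold changed sign. No paired analysis was possible because each genotype has 1 array. Fads2, Elovl7 and the MeXis null value of Scd1 are limited by dim signal.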
